A study of Mus musculus with 185 samples.

Results

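The insulin-like growth factor (IGF) genes described here are the ligands Igf1 and Igf2, the receptors Igf1r and Igf2r, and the binding protein genes Igfbp2 to Igfbp7, 10 genes chosen by name. Of these, 9 were among the 17171 genes of the expression table, and Igfbp2 was not analysed here. The values come from single cells of mouse heart in 9 classes and 4 captures. They were non-myocytes sorted as negative for the endothelial marker CD31 and the leukocyte marker CD45, captured on the Fluidigm C1 system and amplified by SMARTer chemistry. All mice were C57BL/6 (backcross N=6) at about 5 months of age, and the study used them to follow how fibroblasts become periostin-expressing myofibroblasts after myocardial infarction (MI).

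Lineage tracing relied on PostnMCM/+; R26-eGFP and Tcf21MCM/+; R26-eGFP mice, in which tamoxifen switches on eGFP for good in cells that use the Postn or the Tcf21 promoter at that time. Postn codes for periostin, a matrix protein of activated fibroblasts, and Tcf21 for a transcription factor of resident fibroblasts. The MerCreMer allele sits in the Postn locus, so the mice traced through Postn carry a single unaltered Postn allele. The uninjured capture held 33 cells in 4 resident classes, which were 17 Tcf21-traced, 12 Postn-negative, 3 Tcf21-positive and Postn-positive, and 1 Postn-positive cell. The Postn-tracing infarct capture held 57 cells, of which 27 were Postn-traced, 24 Postn-negative and 6 untraced but Postn-positive. The Tcf21-tracing infarct capture held 63 cells, with 44 Tcf21-traced and 19 untraced Postn-positive cells, and the scar capture held 32, with 29 untraced scar cells and 3 untraced Postn-positive cells. According to the study, the Postn-traced and the activated Tcf21-traced cells were taken a week after MI. The time of the scar capture is not given in the sources used here. Classes rest partly on Postn mRNA itself, and eGFP was read by microscopy, so an untraced Postn-positive cell is one with Postn mRNA in which no eGFP was scored. The labels write Tcf21-traced and Tcf21-positive cells as the same class. The untraced scar label says nothing of Postn mRNA, which that class held at a high mean level, given below. No label names the mouse of a cell or the genotype of an untraced cell, so a class stands for a single sample, differences were not tested, and each SD is a spread between cells.

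IGF1 and IGF2 are secreted peptides that act through the tyrosine kinase receptor encoded by Igf1r, while the product of Igf2r takes up IGF2 for breakdown and carries lysosomal enzymes. The binding proteins hold the ligands outside the cell, and proteases that cut them release the ligands again. In the heart, fibroblasts and macrophages are known as local sources of IGF1.

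The deposited values are log2(TPM+1), where TPM is a transcript abundance per length scaled to the same total in every cell, so levels can be compared between genes. The title of the table names FPKM, a related unit, but the columns share nearly the same total, as TPM values do, so the values were read as TPM. Detection in a cell means more than 5 TPM. Between 141 and 5419 genes were detected in a cell. The median number of detected genes was 2258 in the uninjured capture, 2715 in the Postn-tracing infarct capture, 3299 in the Tcf21-tracing infarct capture and 3198 in the scar capture. Within the Postn-tracing capture, the median was 3643 in Postn-traced and 2342 in Postn-negative cells. In the scar class 6 of 29 cells held between 141 and 1560 detected genes, under 50% of the median of their capture. Each interval of a share is an exact 95% one after Clopper and Pearson and covers counting error only. For a count of 0, the share it allows is that of 3 cells in the class, with the same limit.

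The set was uneven in its abundance. Igfbp7 was detected in 171 cells (92.4%, interval 87.6% to 95.8%), Igf2r in 164 cells (88.6%, interval 83.2% to 92.8%), Igfbp4 in 146 cells (78.9%, interval 72.3% to 84.6%) and Igf1 in 130 cells (70.3%, interval 63.1% to 76.8%). Igfbp6 followed in 114 cells (61.6%, interval 54.2% to 68.7%) and Igf1r in 71 cells (38.4%, interval 31.3% to 45.8%). Igfbp5 was detected in 32 cells (17.3%, interval 12.1% to 23.5%), Igfbp3 in 15 cells (8.11%, interval 4.61% to 13%) and Igf2 in 5 cells (2.70%, interval 0.883% to 6.19%). Thus 5 of the 9 genes were found in most of the cells, and 3 of them in under 20% of the cells.

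**Figure D1:**
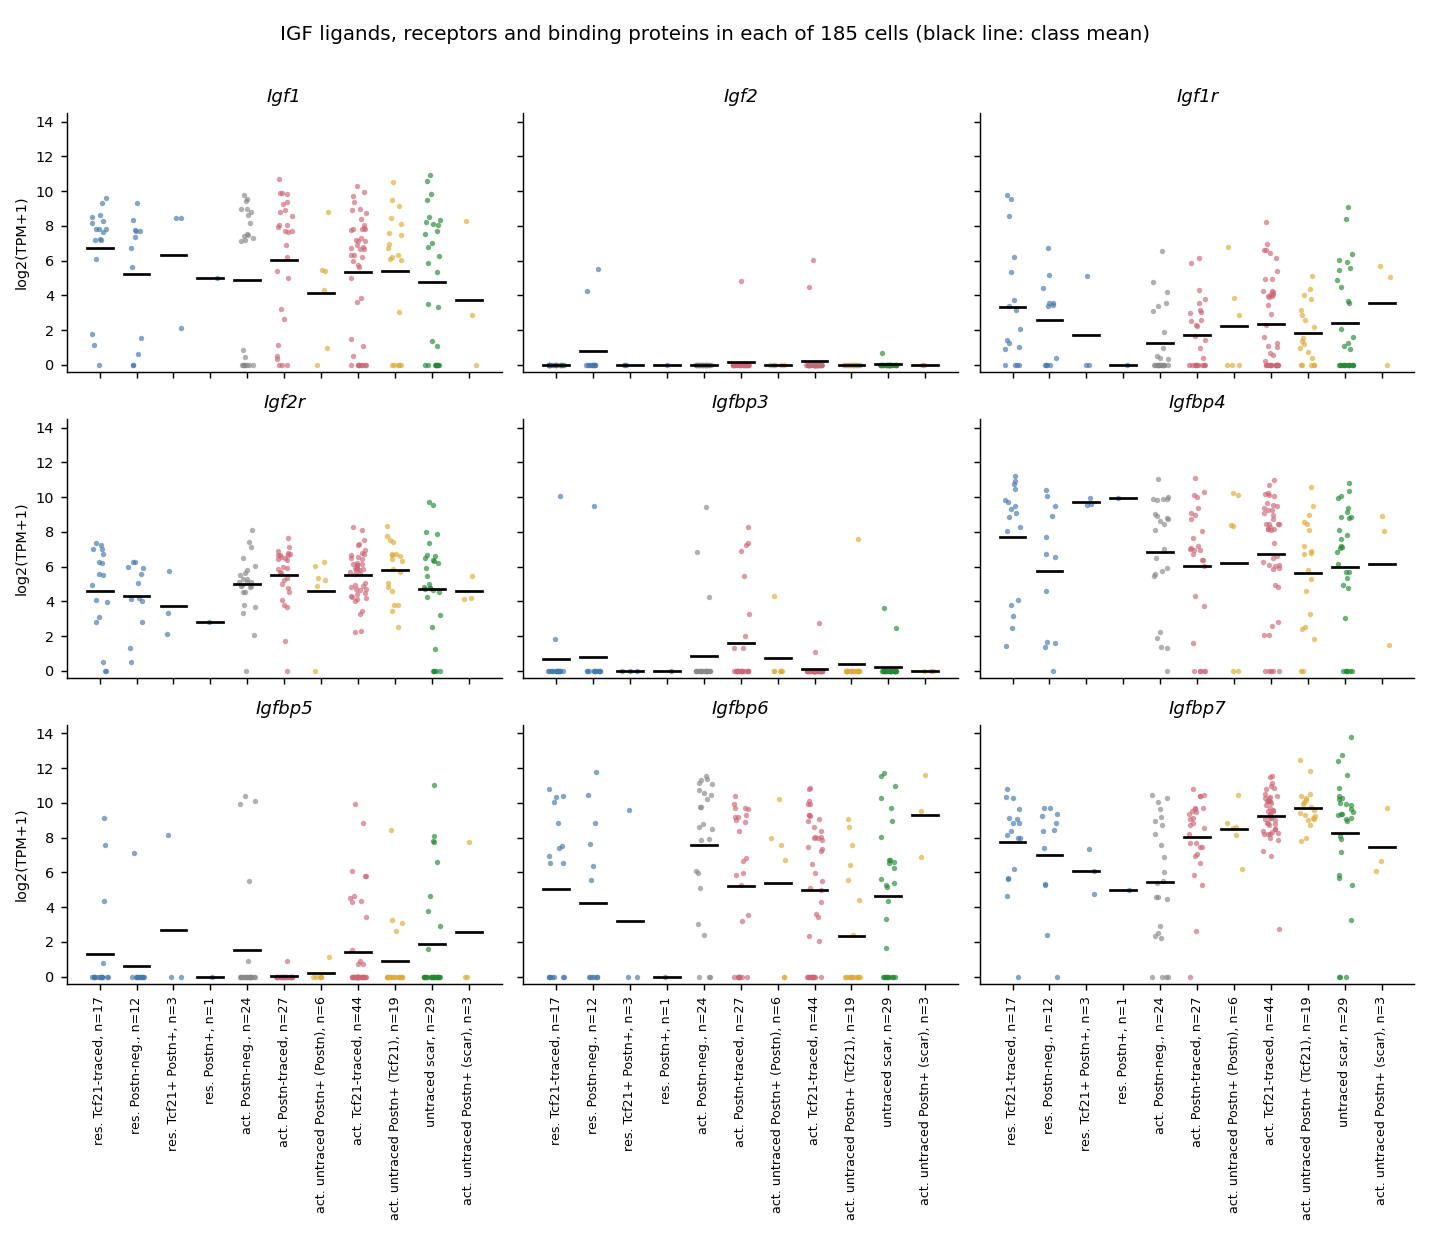
Level of each IGF gene in log2(TPM+1) on the vertical axis, for all cells grouped by class and capture on the horizontal axis; each point is a cell and each black line a class mean. Igfbp7 lies between 7.84 and 12.50 in the 19 untraced Postn-positive cells of the Tcf21-tracing capture, while Igf2 lies at 0 in 179 cells.

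Among the ligands, Igf1 (chromosome 10, 87858265 to 87937042, + strand; positions are from the GRCm38 annotation) was detected in every class. In resident Tcf21-traced cells it ran from 0 to 9.60 with a median of 7.80, in log2(TPM+1), and in activated Postn-traced cells from 0 to 10.71 with a median of 7.67. In activated Tcf21-traced cells it ran from 0 to 10.26 with a median of 6.68. High cells and cells at 0 thus occurred side by side in these 3 classes, whose ranges overlapped.

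The highest class mean of Igf1 among the 7 sets of 12 or more cells was 6.71 ± 2.88 (SD between cells, n = 17) in resident Tcf21-traced cells. Activated Postn-traced cells followed with 6.06 ± 3.65 (n = 27), and the untraced scar cells came last with 4.75 ± 3.97 (n = 29), a place that rested on 6 shallow cells, without which their mean was 5.85 and came next after that of Postn-traced cells. Each of the 6 steps between neighbouring classes in that order was smaller than the smaller SD of the pair. Igf1 was detected in 14 of 17 cells (82.4%, interval 56.6% to 96.2%) of the resident Tcf21-traced class and in 14 of 24 cells (58.3%, interval 36.6% to 77.9%) of the activated Postn-negative class. Where it was detected, its mean was 7.94 in the former and 8.30 in the latter, so the lower class mean of Postn-negative cells went with fewer detected cells and not with a lower level per detected cell.

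Igf2 (chromosome 7, 142650766 to 142666816, - strand), an imprinted gene best known from fetal growth, was detected in 5 cells, of which 2 were resident Postn-negative, 1 was activated Postn-traced and 2 were activated Tcf21-traced. The 3 highest of them stood at 6.04, 5.54 and 4.80. Igf2 was detected in 0 of 24 cells, which allows a share of up to 12.5% of the activated Postn-negative class, and in 0 of 29 cells, which allows a share of up to 10.3% of the scar class. All 5 cells with Igf2 also held Igf2r, as did 88.6% of all cells. Igf2 was too rare for its classes to be ordered. Its annotated exons overlap those of Igf2os on the other strand and of Gm49394 on its own, and since SMARTer libraries do not mark strand, reads in these overlaps cannot be told apart.

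Of the receptors, Igf1r (chromosome 7, 67952827 to 68233668, + strand), which carries the signal of both ligands, was low in most cells and high in a few. In resident Tcf21-traced cells it ran from 0 to 9.80 with a median of 2.08, and in resident Postn-negative cells from 0 to 6.74 with a median of 3.43. In activated Postn-negative cells it ran from 0 to 6.53 with a median of 0. Among the 7 sets of 12 or more cells, the 2 resident ones held the highest means, with 3.32 ± 3.41 (n = 17) and 2.56 ± 2.38 (n = 12), and the activated Postn-negative class the lowest, with 1.24 ± 1.93 (n = 24). In between lay the scar class at 2.42, or 2.66 and above resident Postn-negative cells without its shallow cells, activated Tcf21-traced cells at 2.36, the untraced Postn-positive cells of their capture at 1.80 and activated Postn-traced cells at 1.74. None of the 6 neighbouring steps exceeded the smaller SD. Igf1r was detected in 6 of 24 cells (25%, interval 9.77% to 46.7%) of the activated Postn-negative class and in 19 of 44 cells (43.2%, interval 28.3% to 59%) of the activated Tcf21-traced class, and these intervals overlap.

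Igf2r (chromosome 17, 12682406 to 12769664, - strand), the receptor for IGF2 and for mannose 6-phosphate, was the most even of the well detected genes. It ran from 2.24 to 8.29 with a median of 5.81 in activated Tcf21-traced cells, from 0 to 7.66 with a median of 5.91 in activated Postn-traced cells and from 0.52 to 6.28 with a median of 4.61 in resident Postn-negative cells. Among the 7 sets of 12 or more cells, class means lay between 4.33 ± 1.93 in resident Postn-negative cells and 5.79 ± 1.62 (n = 19) in the untraced Postn-positive cells of the Tcf21-tracing capture. All 4 activated classes from the lineage-tracing captures with 12 or more cells stood above both resident classes, but none of the 6 neighbouring steps exceeded the smaller SD. Airn, an antisense transcript on the other strand, spans part of Igf2r without sharing an exon with it.

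The binding protein genes ranged from near absence to the highest levels of the set. Igfbp3 (chromosome 11, 7206086 to 7213923, - strand), the main carrier of IGFs in serum, was near 0 in most cells. The activated Postn-traced class held it in 6 of 27 cells (22.2%, interval 8.62% to 42.3%), where it ran from 0 to 8.27 with a median of 0, and the activated Tcf21-traced class in 1 of 44 cells (2.27%, interval 0.0575% to 12%). Its highest single cell, a resident Tcf21-traced cell, reached 10.04. Over the same 7 sets its class means lay between 0.09 and 1.59, and no neighbouring step exceeded the smaller SD.

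Igfbp4 (chromosome 11, 99041244 to 99054392, + strand), a binding protein that inhibits IGF action until it is cut, ran from 1.40 to 11.21 with a median of 9.06 in resident Tcf21-traced cells. It ran from 0 to 11.06 with a median of 8.29 in activated Postn-negative cells and from 0 to 10.55 with a median of 6.71 in the untraced Postn-positive cells of the Tcf21-tracing capture. The resident Tcf21-traced class held the highest mean of the 7 sets, 7.69 ± 3.29, and the last of these classes the lowest, 5.65 ± 3.20. The 4 resident cells with Postn mRNA were all high in Igfbp4, with values from 9.54 to 9.95. The 6 neighbouring steps were again within the smaller SD.

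Igfbp5 (chromosome 1, 72857932 to 72874884, - strand), which binds matrix as well as IGFs, was restricted to some cells of some classes. The scar class held it in 8 of 29 cells (27.6%, interval 12.7% to 47.2%), with a highest cell at 11.04. The share was 10 of 44 cells (22.7%, interval 11.5% to 37.8%) in the activated Tcf21-traced class and 4 of 24 cells (16.7%, interval 4.74% to 37.4%) in the activated Postn-negative class. In activated Postn-traced cells it was above the minimum in 0 of 27 cells, which allows a share of up to 11.1%. The step from resident Postn-negative cells, at 0.59, down to activated Postn-traced cells, at 0.03, exceeded the smaller SD of the pair, 0.17, and the other 5 steps did not. For the count of 0 in Postn-traced cells, the exact interval reaches 12.8% and overlaps those of the other 3 classes.

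Igfbp6 and Igfbp7 differed most between classes, and their promoters are shown for that reason. Igfbp6 (chromosome 15, 102144362 to 102149511, + strand) codes for a binding protein that prefers IGF2, and Igfbp7 (chromosome 5, 77349240 to 77408041, - strand) for a secreted protein that binds IGFs weakly and also binds insulin and basement membrane. RefSeq start sites in GRCm38.p6 were found for all 10 genes, and the 250 bases before the start are given 5′ to 3′ on the strand of the gene, chr15:102143936-102144185 on the + strand for Igfbp6 and chr5:77408046-77408295 on the - strand for Igfbp7. Capitals mark matches, on either strand, to TATAAA, the core of a TATA box, and GGGCGG, the core of a GC box.
Igfbp6: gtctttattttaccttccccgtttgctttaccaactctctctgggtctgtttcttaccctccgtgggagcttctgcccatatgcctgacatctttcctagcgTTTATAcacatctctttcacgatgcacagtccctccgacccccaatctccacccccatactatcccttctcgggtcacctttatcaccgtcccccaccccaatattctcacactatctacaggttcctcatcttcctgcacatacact
Igfbp7: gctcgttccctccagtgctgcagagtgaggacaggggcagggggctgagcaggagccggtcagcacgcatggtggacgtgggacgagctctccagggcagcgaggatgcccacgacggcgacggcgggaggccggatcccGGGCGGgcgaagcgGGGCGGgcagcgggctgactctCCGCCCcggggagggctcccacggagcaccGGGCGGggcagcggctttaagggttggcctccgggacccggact
The Igfbp6 window held 1 match to TATAAA, 0 to GGGCGG and 49.6% G and C, and the Igfbp7 window held 0 matches to TATAAA, 4 to GGGCGG and 74%. Of the 32851 RefSeq windows of this length, 12.4% held a TATAAA and 32.7% a GGGCGG, and their median G and C content was 52.4%. A match is a description of the letters and shows no use of the site. The Igfbp6 window ends at 102144185, upstream of the annotated gene start at 102144362, so its content rests on the RefSeq start used.

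Igfbp6 ran from 0 to 11.55 with a median of 8.68 in activated Postn-negative cells and from 0 to 10.42 with a median of 5.97 in activated Postn-traced cells. In the untraced Postn-positive cells of the Tcf21-tracing capture it ran from 0 to 9.05 with a median of 0. The first of these classes was the highest and the last the lowest of the 7 sets, with class means of 7.59 ± 3.88 (n = 24) and 2.32 ± 3.41 (n = 19). The other 5 lay between 4.22 and 5.21. Igfbp6 was detected in 20 of 24 cells (83.3%, interval 62.6% to 95.3%) of the activated Postn-negative class and in 6 of 19 cells (31.6%, interval 12.6% to 56.6%) of the untraced Postn-positive class, and these intervals do not overlap. Some cells of each of these 7 sets stood at 0, and single steps in the order stayed within the smaller SD.

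Igfbp7 ran from 7.84 to 12.50 with a median of 9.57 in the untraced Postn-positive cells of the Tcf21-tracing capture and from 2.72 to 11.58 with a median of 9.35 in the activated Tcf21-traced cells beside them. In activated Postn-negative cells it ran from 0 to 10.47 with a median of 5.45. All 63 cells of the Tcf21-tracing capture were above 5 TPM, or 100% of them. The order of class means was 9.73 ± 1.13 (n = 19), 9.25 ± 1.49 (n = 44), 8.26 ± 3.62 in the scar class (n = 29), 8.02 ± 2.43 in activated Postn-traced cells (n = 27), 7.74 ± 2.67 and 7.00 ± 3.14 in the resident Tcf21-traced and Postn-negative classes (n = 17 and 12), and 5.44 ± 3.59 in activated Postn-negative cells (n = 24). Each step was within the smaller SD of the pair, although the top and bottom classes were 4.29 log2 units apart. Exons of Igfbp7 overlap those of Polr2b on the other strand, so reads in that overlap cannot be told apart.

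Since TPM is scaled per length, the binding proteins can be ranked within each cell. Igfbp7 had the highest TPM of the 5 measured binding proteins in 86 cells (46.5%, interval 39.1% to 54%), Igfbp4 in 49 cells (26.5%, interval 20.3% to 33.5%) and Igfbp6 in 42 cells (22.7%, interval 16.9% to 29.4%). Igfbp3 and Igfbp5 led in 2 cells each, and 4 cells had none above the minimum. The leading gene changed with the class. Igfbp7 led in 16 of 19 cells (84.2%, interval 60.4% to 96.6%) of the untraced Postn-positive class of the Tcf21-tracing capture and in 28 of 44 cells (63.6%, interval 47.8% to 77.6%) of the activated Tcf21-traced class. Igfbp6 led in 13 of 24 cells (54.2%, interval 32.8% to 74.4%) of the activated Postn-negative class, in which Igfbp7 led in 2 of 24 cells (8.33%, interval 1.03% to 27%). Igfbp4 led in 8 of 17 cells (47.1%, interval 23% to 72.2%) of the resident Tcf21-traced class and in all 4 resident cells with Postn mRNA.

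**Figure D2:**
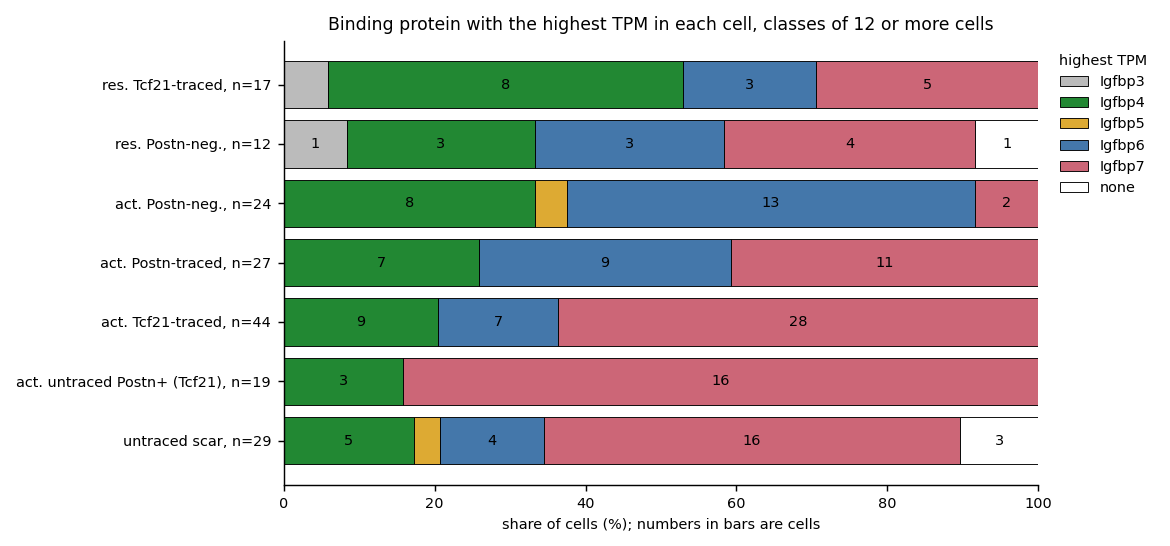
Share of cells, in percent on the horizontal axis, in which each binding protein had the highest TPM, for the 7 sets of 12 or more cells on the vertical axis; numbers in the bars are cells. Igfbp6 leads in 13 of 24 activated Postn-negative cells and in 0 of 19 untraced Postn-positive cells of the Tcf21-tracing capture.

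The summed level of the binding proteins ran from 0 to 14033 TPM over all cells. Its median was 1683 TPM in resident Tcf21-traced cells, 1444 in activated Postn-negative cells, 1355 in scar cells, 1315 in activated Tcf21-traced cells and 963 in activated Postn-traced cells. It was 1078 in resident Postn-negative cells and 1006 in the untraced Postn-positive cells of the Tcf21-tracing capture. On average Igfbp6 took 41.3% of a cell's sum in activated Postn-negative cells and 5.59% in the untraced Postn-positive cells of the Tcf21-tracing capture. Igfbp7 took 14.2% in the former and 77.3% in the latter. At least 2 binding proteins were detected in 165 cells (89.2%), so most cells held a mixture.

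Class means were then compared gene by gene. A gene counted as higher or lower when the class means lay more than 1 log2 unit apart, among genes above 5 TPM in at least 10% of the cells of both classes together. With 1 sample a class this is a rule of size, and it has no replicate check. The first 3 comparisons lie within a capture. The other 5 cross captures, and there the class and the capture cannot be told apart.

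**Figure D3:**
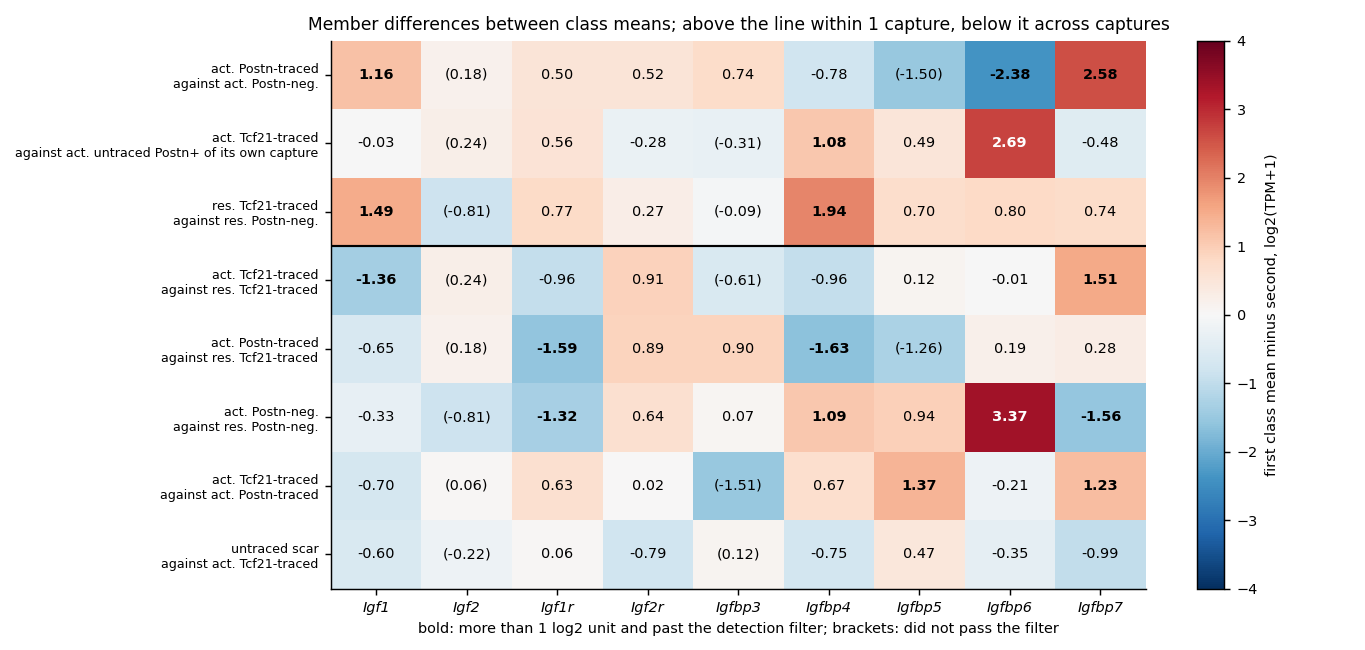
Difference of class means in log2(TPM+1) for 9 IGF genes (columns) in 8 comparisons (down the side), with the first class minus the second in each square. Bold values are over 1 log2 unit in size among genes that passed the detection filter, and values in brackets did not pass it; Igfbp6 spans -2.38 to 3.37.

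The comparison of activated Postn-traced with activated Postn-negative cells sets cells of the myofibroblast lineage against other sorted cells of the same capture. Those other cells also carried fibroblast mRNA, since all 24 held 3 or more of 6 fibroblast markers. Tcf21 had a mean of 3.92 in Postn-traced and 6.60 in Postn-negative cells, and Col1a1 of 10.45 and 6.55. Igfbp7 had a class mean of 8.02 in Postn-traced and 5.44 in Postn-negative cells, a difference of 2.58. Igf1 was higher by 1.16, with means of 6.06 and 4.90. Igfbp6 went the other way, with 5.21 against 7.59, a difference of -2.38. Of the 7 IGF genes that passed the filter, 2 were thus higher, where 33.2% of 7636 genes were, and 1 was lower, where 4.57% of all genes were. The median over all genes was 0.61, and the difference of Igfbp6 lay below that of all but 0.851% of the genes. That of Igfbp7 exceeded 96.3% of them.

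The difference of Igfbp7 was larger than the SD of the Postn-traced cells, 2.43, and smaller than that of the Postn-negative cells, 3.59. Those of Igf1 and Igfbp6 were smaller than either SD. Taking means on the linear scale reduced the difference of Igfbp7 to 0.89 and that of Igf1 to 0.52, both under 1 unit, and left Igfbp6 lower. The difference of Igf1 also came under 1 unit with medians over cells (0.44), with a pseudocount of 5 (0.75) and without 2 Postn-negative cells that held markers of another cell type (0.75). Centring each cell on its median detected gene moved the median of all genes by 0.52. Of the genes past 1 unit, 87.9% were higher, and 56.4% with linear means. Igfbp5, at -1.50, did not pass the filter, and Igfbp4, at -0.78, Igfbp3, Igf2r and Igf1r lay within 1 unit.

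Depth moved with this comparison, since Postn-traced cells held more detected genes. Among the 21 Postn-traced and 21 Postn-negative cells with 2000 to 4000 detected genes, whose medians were 3500 and 2346, the difference was 2.30 for Igfbp7, -3.30 for Igfbp6 and 1.69 for Igf1. Each kept its sign and stayed past 1 unit. The window was chosen after the data were seen, it narrowed the gap in depth without closing it, and the part of depth in the result was not tested. Markers of smooth muscle, which myofibroblasts share, also moved with this comparison, at a summed mean of 747 TPM in Postn-traced and 87.2 TPM in Postn-negative cells. Epicardial markers stood at 11.6 and 89.1 TPM, and the part of these markers was not tested either.

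**Figure D4:**
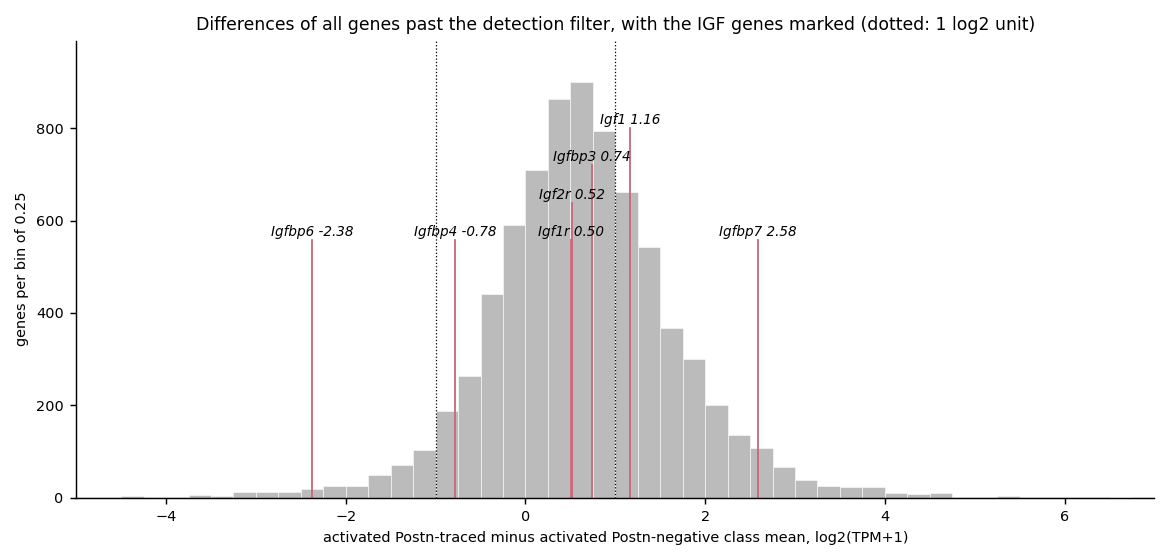
Number of genes (vertical axis) by difference of class means in log2(TPM+1), activated Postn-traced minus activated Postn-negative, for 7636 genes past the detection filter (horizontal axis, bins of 0.25). Red lines mark the 7 IGF genes that passed, from Igfbp6 at -2.38 to Igfbp7 at 2.58, and the bulk of all genes lies above 0 with a median of 0.61.

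Cell by cell, the ratio of Igfbp7 to Igfbp6 differed between these classes. Igfbp7 exceeded Igfbp6 in 17 of 27 Postn-traced and 7 of 24 Postn-negative cells. The log2 difference of Igfbp7 and Igfbp6 ran from -6.35 to 10.38 with a median of 1.26 in the former, and from -11.39 to 5.42 with a median of -1.05 in the latter. Igfbp6 without Igfbp7 was found in 5 of 24 Postn-negative cells and in 0 of 27 Postn-traced cells. The classes still overlapped, with cells of both on either side of equality.

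**Figure D5:**
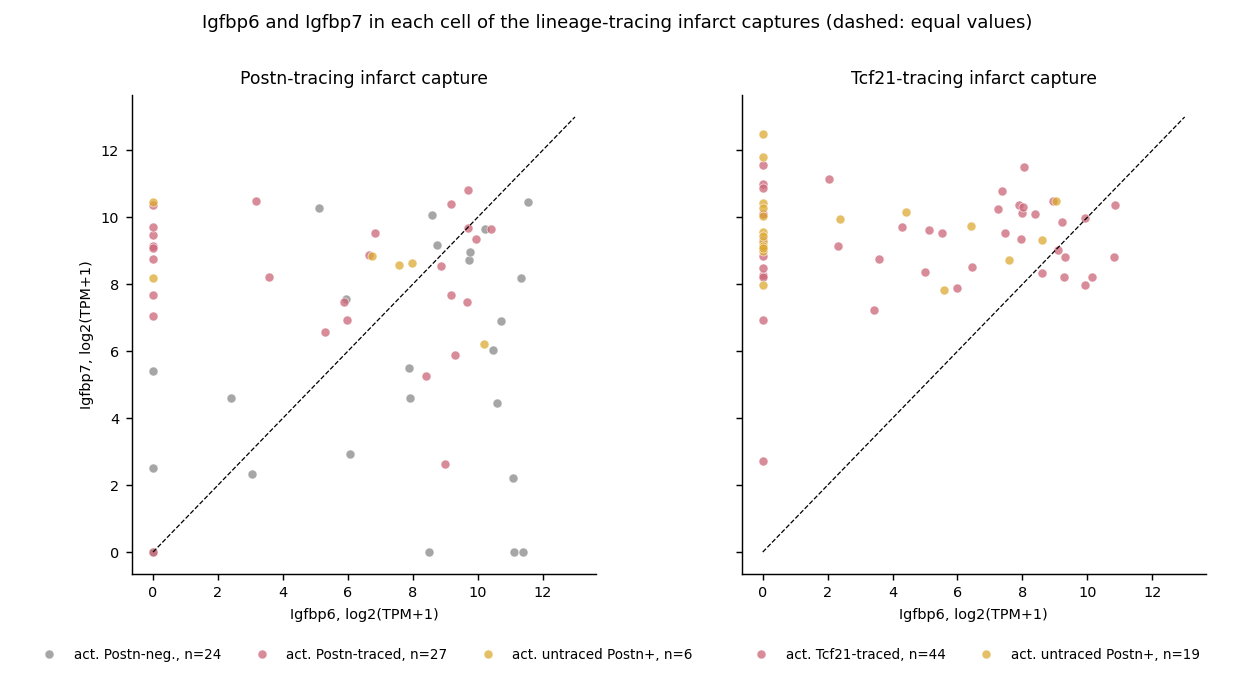
Igfbp7 against Igfbp6 in log2(TPM+1) for each cell of the Postn-tracing infarct capture (left, 57 cells) and the Tcf21-tracing infarct capture (right, 63 cells), with equal values on the dashed line. Igfbp7 lies above Igfbp6 in 7 of 24 Postn-negative cells and in 19 of 19 untraced Postn-positive cells of the right panel.

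Within the Tcf21-tracing capture, the Tcf21-traced cells were compared with the untraced cells that carried Postn mRNA. Only the untraced class was named for Postn mRNA, so the comparison is not one of lineage alone. Postn had a mean of 9.97 in Tcf21-traced and 11.49 in untraced cells, Col1a1 of 9.06 and 10.29, and Tcf21 of 4.01 and 2.39. Igfbp6 had a mean of 5.01 in Tcf21-traced and 2.32 in untraced cells, and its difference of 2.69 was among the highest of 8243 genes. Igfbp4 was higher by 1.08. Of 7 IGF genes that passed, 2 were higher, against 6.36% of all genes, and 0 were lower, against 9.01%. Igfbp7 was high in both classes and differed by -0.48, and Igf1 differed by -0.03.

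Both differences were within the SDs of the classes. That of Igfbp6 stayed past 1 unit under every alternative computed, and that of Igfbp4 came under it with linear means (0.79) and with centred cells (0.82). Centring moved the median of all genes by -0.26, from -0.05. Higher genes made up 41.4% of those past 1 unit, 59.8% with linear means and 16.2% with centred cells. Igfbp7 exceeded Igfbp6 in 36 of 44 Tcf21-traced cells and 19 of 19 untraced cells. Both classes had 0 cells with Igfbp6 alone. Smooth muscle markers stood at a summed mean of 462 TPM in Tcf21-traced and 1204 TPM in untraced cells. Pericyte markers stood at 53.2 and 11 TPM, and the median number of detected genes was 3134 and 3361. The part of these markers, of the Postn level and of depth was not tested.

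In uninjured hearts, resident Tcf21-traced cells were set against the resident Postn-negative cells captured with them. Igfbp4 was higher by 1.94, with means of 7.69 and 5.75, and Igf1 by 1.49, with 6.71 and 5.22. These were 2 of 7 genes that passed, against 19.6% of 6652 genes, and 0 were lower, against 13.6%. Both differences were smaller than the SDs, and that of Igf1 came under 1 unit with linear means (0.62) and with medians (0.77). The remaining genes that passed lay between 0.27 for Igf2r and 0.80 for Igfbp6, around a median of all genes of 0.15. That of Igf1r, 0.77, turned to -1.34 with medians over cells, past 1 unit the other way. Those of Igfbp6, Igf2r and Igfbp7 also fell below 0 under some alternative, to -0.31, -0.07 and -0.01. Leukocyte markers moved with this comparison, at a summed mean of 15.8 TPM in Tcf21-traced and 766 TPM in Postn-negative cells, of which 1 held 3 or more of them, with Igfbp4 at 0 and Igf1 at 0.64. With cells with markers of another type left out, the difference was 1.42 for Igfbp4 and 1.07 for Igf1. Pericyte markers stood at 2.98 TPM in Tcf21-traced and 56.2 TPM in Postn-negative cells. Cardiomyocyte markers, nearly all Tnnt2, stood at 57.3 and 0.443 TPM, and the part of these markers was not tested.

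Activated and resident Tcf21-traced cells show the same lineage with and without infarction, in different captures. Igfbp7 was higher by 1.51 in activated cells, with means of 9.25 and 7.74, and Igf1 was lower, with 5.35 against 6.71 and a difference of -1.36. Of 7 genes that passed, 1 was higher, against 34.7% of 7610 genes, and 1 was lower, against 4.86%. Igfbp6 had nearly equal means, with a difference of -0.01, Igfbp4 and Igf1r stood at -0.96 and -0.96, and the median of all genes was 0.65. The difference of Igfbp7 was slightly larger than the SD of the activated class and came under 1 unit with linear means (0.81) and medians (0.93). That of Igf1 did so with linear means (-0.35) and centred cells (-0.91). Centring moved the median of all genes by 0.45, and higher genes were 87.7% of those past 1 unit, or 60.4% with linear means. Pericyte markers moved with this comparison, at a summed mean of 53.2 TPM in activated and 2.98 TPM in resident cells. Smooth muscle markers stood at 462 and 103 TPM, and the median number of detected genes was 3134 and 2264. The part of these markers and of depth was not tested.

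Against the same resident Tcf21-traced cells, activated Postn-traced cells had lower Igfbp4, with 6.06 against 7.69 and a difference of -1.63. Igf1r was lower too, with 1.74 against 3.32 and a difference of -1.59. These were 2 of 7 genes that passed, against 4.58% of 7874 genes, and 0 were higher, where 39.2% of all genes were. Igfbp7 and Igfbp6 differed by 0.28 and 0.19, and Igfbp5, at -1.26, did not pass the filter. With medians over cells the difference of Igf1r was -0.67, under 1 unit, while that of Igfbp4 stayed past it under each alternative. Both were within the SDs. Centring moved the median of all genes from 0.74 by 0.50, and 89.5% of the genes past 1 unit were higher, or 60.5% with linear means. This comparison shares its resident cells with the one before it. The median number of detected genes was 3643 in Postn-traced and 2264 in resident Tcf21-traced cells. Smooth muscle markers stood at a summed mean of 747 and 103 TPM, and the part of depth and of these markers was not tested.

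Postn-negative cells of the infarct and of the uninjured heart differed most in Igfbp6. It was higher by 3.37, with means of 7.59 and 4.22, and its difference exceeded that of 99.3% of 6548 genes. Igfbp4 was higher by 1.09. Igfbp7 was lower, with 5.44 against 7.00 and a difference of -1.56, and Igf1r by a difference of -1.32. Of 8 genes that passed, 2 were higher, against 24.1% of all genes, and 2 lower, against 10.4%. The median of all genes was 0.29. Markers of other cell types moved with this comparison, at a summed mean of 0.313 TPM in activated and 766 TPM in resident cells for leukocytes, and 89.1 and 0.1 TPM for the epicardium. Their part was not tested.

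All 4 of these differences were smaller than the SDs between cells. With linear means, that of Igfbp6 was 0.94, that of Igfbp7 -0.32 and that of Igfbp4 0.33, each under 1 unit. Igfbp4 also came under it with a pseudocount of 5 (0.87) and without the 3 cells that held markers of another type (0.37), and Igf1r with a pseudocount of 5 (-0.75).

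The lineage-traced classes of the infarct, Tcf21-traced against Postn-traced, lie in different captures. Igfbp5 was higher by 1.37 in Tcf21-traced cells, with means of 1.40 and 0.03, and Igfbp7 by 1.23, with 9.25 and 8.02. These were 2 of 7 genes that passed, against 6.5% of 8221 genes, and 0 were lower, against 11.3%. Igfbp3, at -1.51, did not pass the filter, since it was detected in 6 Postn-traced and 1 Tcf21-traced cell. The difference of Igfbp5 is that between a class with detected cells and a class without any, and with medians over cells both stood at 0. With a pseudocount of 5 it was 0.84. That of Igfbp7 came under 1 unit with linear means (0.72) and medians (0.60). Higher genes were 36.5% of those past 1 unit, and 50% with linear means. Pericyte markers stood at a summed mean of 53.2 TPM in Tcf21-traced and 2.86 TPM in Postn-traced cells. Smooth muscle markers stood at 462 and 747 TPM, and the part of these markers was not tested.

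Untraced scar cells against activated Tcf21-traced cells gave 0 of 7 IGF genes higher, where 2.06% of 7815 genes were, and 0 lower, where 26.5% were. Igfbp7 had the largest difference, -0.99, followed by Igf2r at -0.79 and Igfbp4 at -0.75, beside a median of all genes of -0.49. Centring moved that median by -0.84. Leaving out the 6 shallow scar cells raised the median to -0.14 and the share of higher genes among those past 1 unit from 7.20% to 37.6%, and linear means gave 37%. Without the shallow cells still 0 IGF genes differed by more than 1 unit, while centred cells gave 5 lower and linear means 1 higher. In the 23 scar cells that remained, the mean was 5.85 for Igf1, 7.34 for Igfbp4, 5.48 for Igfbp6 and 8.76 for Igfbp7, each higher than over all 29. Those of Igf1, Igfbp4 and Igfbp6 thereby lay above the means of Tcf21-traced cells, 5.35, 6.73 and 5.01, and that of Igfbp7 stayed below 9.25. The differences of Igfbp7, Igf2r and Igfbp4 each turned positive under some alternative, reaching 0.79, 0.63 and 0.61. Postn had a mean of 9.18 ± 4.46 in all scar cells and 9.97 ± 3.78 in Tcf21-traced cells, so the untraced scar class was not one without Postn. Pericyte markers summed to a mean of 226 TPM in all scar and 53.2 TPM in Tcf21-traced cells. Epicardial markers summed to 90.1 and 1.97 TPM, of which Wt1 alone made up 89.5 and 1.89 TPM. Their part was not tested.

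Some of the highest single values came from those shallow scar cells, where a few genes share the whole scale of TPM. The highest Igfbp7 of all cells, 13.78, was in a scar cell with 264 detected genes, and the next, 12.74, in one with 244. The highest Igf2r, 9.70, was in a scar cell with 188. The highest cells of Igf1, Igfbp4, Igfbp5 and Igfbp6 held between 2279 and 3742.

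The untraced Postn-positive label occurs in 3 infarct captures and shows how far IGF genes moved between captures under the same label. Igfbp6 had a mean of 5.42 in the 6 cells of the Postn-tracing capture, 2.32 in the 19 of the Tcf21-tracing capture and 9.33 in the 3 of the scar capture, a range of 7.01. The range was 2.40 for Igfbp5, 2.24 for Igfbp7, 1.77 for Igf1r, 1.67 for Igf1 and 0.53 for Igfbp4. For Igfbp6, Igfbp5 and Igf1r it exceeded every call on the same gene across captures, so differences of that size occurred between captures with the same label. For Igfbp7 and Igf1 it did so only with a shallow cell of the scar capture, and for Igfbp4 it did not. Without that cell the scar capture mean moved from 6.15 to 4.76 for Igfbp4 and from 3.57 to 5.36 for Igf1r. It moved from 2.58 to 3.88 for Igfbp5, and the ranges of all these genes widened. For Igfbp6 it moved from 9.33 to 8.19, and the range narrowed. With 3 and 6 cells in the smaller sets, these means are loosely placed.

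Counts of 2 genes in the same cell depend on how often each is detected, which was 70.3% of all cells for Igf1 and 38.4% for Igf1r. The shares with both genes were not set against those expected from each gene alone, so they show no link or separation. Igf1 and Igf1r were detected together in 53 cells (28.6%, interval 22.3% to 35.7%), Igf1 without Igf1r in 77 and Igf1r without Igf1 in 18. The share with both was 7 of 17 cells (41.2%, interval 18.4% to 67.1%) in resident Tcf21-traced and 5 of 24 cells (20.8%, interval 7.13% to 42.2%) in activated Postn-negative cells, with overlapping intervals. With any value over 0 counted as detection, these shares were higher in 4 classes by more than their intervals, among them resident Tcf21-traced cells at 70.6%. Igf1 and Igf2r were found together in 120 cells (64.9%, interval 57.5% to 71.7%) and Igf1 and Igfbp4 in 112 cells (60.5%, interval 53.1% to 67.6%).

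Across all cells, after the mean of each class and capture was removed, the 36 pairs of IGF genes had Pearson's r between -0.16 and 0.27, and 35 lay within 0.2 of 0. The highest was that of Igf1 with Igfbp4. With Postn, r was 0.22 for Igfbp7 and 0.21 for Igfbp5, and with the number of detected genes it was 0.21 for Igf2r and 0.20 for Igfbp6. These cells share captures, depth and the scaling of TPM, and in sparse values a weak correlation is no finding.

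By the same measure over 5039 genes detected in at least 20% of cells, the genes most like Igf1 were Mmp2 (r = 0.39), Nfia (r = 0.38) and Nfib (r = 0.35). For Igfbp4 they were Serping1 (r = 0.47), Mmp2 (r = 0.45) and Sepp1 (r = 0.40). Mmp2, a gelatinase of fibroblasts, stood in both lists, though without shallow cells it left that of Igfbp4. For Igfbp6 they were Pi16 (r = 0.40), Pmp22 (r = 0.39) and Crip1 (r = 0.37), and for Igfbp7 Ltbp4 (r = 0.40), Lama2 (r = 0.40) and Cygb (r = 0.38). The receptors had lower values, with Jak1 (r = 0.36) first for Igf2r and Selk (r = 0.34) first for Igf1r. All were modest. With Spearman's correlation 1 of the 3 genes stayed for each receptor and for Igfbp7, 2 for Igf1 and Igfbp6, and 3 for Igfbp4. With only capture means removed 0 stayed for Igfbp7, 2 for each receptor and 3 for the others. Without shallow cells 1 stayed for each receptor and for Igfbp4, 2 for Igf1 and Igfbp7, and 3 for Igfbp6.

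A list of 62 other genes of the pathway, covering receptors, proteases, imprinted partners and signalling, had 53 in the table. Between Postn-traced and Postn-negative infarct cells, 14 of the 32 that passed were higher, where 33.2% of all genes were, and 3 lower, where 4.57% were, with a median difference of 0.70 beside 0.61 for all genes. Ctsd, a lysosomal protease that the product of Igf2r helps to sort, was higher by 2.10, and Akt1, a kinase downstream of the receptor, by 2.01. Grb10, an imprinted adaptor that dampens insulin and IGF1 signalling, was higher by 2.11. Htra3, a serine protease, differed by -2.22, Socs3, an inhibitor of cytokine signalling, by -2.13 and Foxo1, a transcription factor that AKT holds out of the nucleus, by -1.67.

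Between activated and resident Tcf21-traced cells 9 of 33 pathway genes were higher, beside 34.7% of all genes, and 2 lower, beside 4.86%. Between Postn-traced and resident Tcf21-traced cells 9 of 32 were higher, beside 39.2%, and 3 lower, beside 4.58%. Ctsd was higher by 4.23 in the first and 4.95 in the second, Socs2, an inhibitor of growth hormone signalling, by 2.64 and 2.57, and Eif4ebp1, a repressor of translation that mTOR switches off, by 2.82 and 2.15. Socs3 differed by -2.22 and -2.26. Both comparisons share the resident cells. Between infarct and resident Postn-negative cells 10 of 31 were higher, beside 24.1% of all genes, and 2 lower, beside 10.4%, with Socs2 at 2.84 and Eif4ebp1 at 2.16.

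Within the Tcf21-tracing capture 3 of 35 pathway genes were higher in Tcf21-traced cells, beside 6.36% of all genes, and 2 lower, beside 9.01%, with Gsk3b, a kinase that AKT inhibits, at 1.55 and Tmem219, a receptor for IGFBP3, at -1.57. Among resident cells 6 of 32 were higher in the Tcf21-traced class, beside 19.6%, and 3 lower, beside 13.6%, with Grb10 at 1.87 and Ctsd at -1.85. Tcf21-traced against Postn-traced infarct cells gave 0 of 37 higher, beside 6.5%, and 2 lower, beside 11.3%. Scar cells against Tcf21-traced cells gave 1 of 36 higher, beside 2.06%, and 8 lower, beside 26.5%, with Socs2 at -2.30 and Akt1 at -1.62, beside the median of all genes of -0.49. Pappa, whose product cuts IGFBP4, was detected in 17 cells, and Stc2, whose product blocks it, in 12. Insr, the insulin receptor gene, was detected in 14.

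Marker lists of 7 cell types, 6 genes each, described which cells the gate had let through. Fibroblast markers summed to a mean of 18556 TPM over all cells, led by Dcn at 11632 TPM, and 180 cells held 3 or more of the 6. Of 4 endothelial markers in the table, Pecam1 was the most abundant and Tie1 was never detected, with a sum of 4 TPM and 0 cells with 3 markers. Leukocyte markers (5 of 6 in the table) summed to 56 TPM and pericyte markers (6 of 6) to 54.7 TPM. They were uneven, with leukocyte markers at 766 TPM in resident Postn-negative cells and pericyte markers at 226 TPM in scar cells. Cardiomyocyte (5 of 6) and epicardial markers (6 of 6) summed to 16.2 and 27.9 TPM. Cdh5, Vwf, Adgre1 and Nppa were not used here.

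Smooth muscle markers, led by Tagln, were found at 3 or more in 21 cells, and their summed mean differed between classes and captures. It was 1204 TPM in the untraced Postn-positive cells of the Tcf21-tracing capture and 77.2 TPM in those of the Postn-tracing capture. It was 462 TPM in activated Tcf21-traced cells, against 103 TPM in resident Tcf21-traced and 49.5 TPM in resident Postn-negative cells. Myh11, Cnn1 and Myocd, which define smooth muscle, were at 0 in these resident classes, in activated Postn-negative cells and in the untraced Postn-positive cells of both captures. In activated Postn-traced cells Myh11 and Myocd were detected, in activated Tcf21-traced cells Cnn1 and in scar cells Myh11 and Cnn1. Their part in the result was not tested.

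The few cells with 3 or more markers of another type, smooth muscle aside, differed widely in IGF genes. The resident Postn-negative cell with leukocyte markers had all 5 measured binding proteins at 0. An activated Tcf21-traced cell with pericyte markers held the highest Igfbp7 of its class, 11.58, with Igfbp4 and Igfbp6 at 0, and a scar cell with pericyte markers held Igfbp5 at 7.75. The activated Postn-negative cells with cardiomyocyte and with epicardial markers had Igfbp6 at 8.60 and 8.50, just below the class median of 8.68. The former held the highest Igfbp4 of its class, 11.06. Cells with such markers thus held the highest value of a class for some genes and middling or low values for others. They were left out as an alternative chosen after the data were seen.

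Of the 17 calls on IGF genes over the 8 comparisons, 4 stayed past 1 unit under each alternative. These were Igfbp6 in both comparisons within infarct captures, and Igfbp4 in resident Tcf21-traced cells against the resident Postn-negative and the activated Postn-traced class. With 1 sample a class, mice, captures and classes cannot be told apart beyond what the comparisons within a capture allow, and mRNA levels say nothing of secreted protein.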

How the data were processed

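The deposited log2(TPM+1) values were used as the authors gave them, after a check that columns share the same total, as TPM values do. According to the submitters' processing notes, reads were aligned to mm10 with Bowtie 1.0.0 and quantified with eXpress 1.5.1. Single cells were the unit, all were kept, and 0 per-sample columns stayed unused. Detection meant above 5 TPM, and a call a difference of class means over 1 log2 unit among genes detected in at least 10% of both classes' cells. Members and gene lists were chosen with earlier results of these data known. Pathway genes were named for differences of at least 1 log2 unit or for a role in IGF signalling, after the values were seen. Alternatives fixed beforehand were linear means, medians, pseudocounts of 0.1 and 5, centred cells, shallow cells left out, other gene filters, detection minima of 1 and 0 TPM, Spearman's correlation and capture means. Added after the data were seen were a depth window, untraced cells joined to the Postn-negative class, and cells with markers of another type left out. Igfbp2 was not analysed here, and the values of a further marker list, which served only to leave out cells, are not reported here. Promoters came from RefSeq (GRCm38.p6) and positions from GENCODE (GRCm38). Scripts ran under Python 3.11.15 with pandas 2.3.3, SciPy 1.17.1, NumPy 2.4.6 and, for figures, Matplotlib 3.10.9.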

Additional observations from a re-analysis of the deposited data

How the results depend on the processing

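No paired analysis was possible because the labels give no replicate pairs and the results come from no test. No called value changed direction under any alternative. Of 123 alternative values of the 17 calls, 122 kept their sign, 1 was 0 and 99 stayed past 1 unit. These include values that could not change. No call involved the scar capture, which held all shallow cells, so leaving them out repeated the main value of each call. Over all member differences 437 values stayed within 1 SD and 76 moved, and of detection shares 170 stayed within their interval and 19 moved. All 105 shares of cells led by a binding protein stayed, but this was nearly fixed in advance. A lower minimum cannot change which gene leads, except in the 4 cells with none above it. Shallow cells lay only in the scar capture, so leaving them out could change no share in other captures. Counts past 1 unit that moved by over 1.5 times are given by setting, with the reported count in brackets. Linear means gave 1553 genes lower (from 349) and 0 members higher (from 2) for Postn-traced against Postn-negative cells. They gave 1854 genes higher (from 524) and 1245 genes lower (from 743) for Tcf21-traced against untraced cells of their capture. They gave 2232 genes higher (from 1302) and 1646 genes lower (from 907) for resident Tcf21-traced against Postn-negative cells. They gave 1603 genes lower (from 370) and 0 members higher (from 1) for Tcf21-traced against resident cells. They gave 1708 genes lower (from 361) for Postn-traced against resident cells. They gave 1444 genes lower (from 680), 1 member higher (from 2) and 1 member lower (from 2) for Postn-negative against resident cells. They gave 1426 genes higher (from 534) and 1428 genes lower (from 931) for Tcf21-traced against Postn-traced cells. They gave 1222 genes higher (from 161) and 1 member higher (from 0) for scar against Tcf21-traced cells. Medians over cells gave 2 members lower (from 1) for Postn-traced against Postn-negative cells. They gave 754 genes higher (from 1302), 569 genes lower (from 907) and 1 member lower (from 0) for resident Tcf21-traced against Postn-negative cells. They gave 0 members higher (from 1) for Tcf21-traced against resident cells. They gave 1 member lower (from 2) for Postn-traced against resident cells. They gave 939 genes higher (from 1578) for Postn-negative against resident cells. They gave 1 member higher (from 2) for Tcf21-traced against Postn-traced cells. They gave 1 member lower (from 0) for scar against Tcf21-traced cells. A pseudocount of 0.1 gave 3933 genes higher (from 2538), 4 members higher (from 2) and 2 members lower (from 1) for Postn-traced against Postn-negative cells. It gave 1162 genes higher (from 524) and 1587 genes lower (from 743) for Tcf21-traced against untraced cells of their capture. It gave 1962 genes higher (from 1302), 1367 genes lower (from 907) and 5 members higher (from 2) for resident Tcf21-traced against Postn-negative cells. It gave 4044 genes higher (from 2643), 2 members higher (from 1) and 3 members lower (from 1) for Tcf21-traced against resident cells. It gave 551 genes lower (from 361) and 2 members higher (from 0) for Postn-traced against resident cells. It gave 1031 genes lower (from 680) for Postn-negative against resident cells. It gave 1150 genes higher (from 534) and 1742 genes lower (from 931) for Tcf21-traced against Postn-traced cells. It gave 338 genes higher (from 161), 3469 genes lower (from 2074) and 3 members lower (from 0) for scar against Tcf21-traced cells. A pseudocount of 5 gave 1274 genes higher (from 2538), 220 genes lower (from 349) and 1 member higher (from 2) for Postn-traced against Postn-negative cells. It gave 202 genes higher (from 524) and 266 genes lower (from 743) for Tcf21-traced against untraced cells of their capture. It gave 702 genes higher (from 1302) and 483 genes lower (from 907) for resident Tcf21-traced against Postn-negative cells. It gave 1324 genes higher (from 2643) and 228 genes lower (from 370) for Tcf21-traced against resident cells. It gave 1566 genes higher (from 3085) and 227 genes lower (from 361) for Postn-traced against resident cells. It gave 863 genes higher (from 1578), 359 genes lower (from 680), 1 member higher (from 2) and 1 member lower (from 2) for Postn-negative against resident cells. It gave 215 genes higher (from 534), 354 genes lower (from 931) and 1 member higher (from 2) for Tcf21-traced against Postn-traced cells. It gave 57 genes higher (from 161) and 1043 genes lower (from 2074) for scar against Tcf21-traced cells. Centring each cell gave 4305 genes higher (from 2538), 170 genes lower (from 349) and 5 members higher (from 2) for Postn-traced against Postn-negative cells. It gave 256 genes higher (from 524), 1328 genes lower (from 743) and 1 member higher (from 2) for Tcf21-traced against untraced cells of their capture. It gave 4120 genes higher (from 2643), 183 genes lower (from 370), 2 members higher (from 1) and 0 members lower (from 1) for Tcf21-traced against resident cells. It gave 4737 genes higher (from 3085), 177 genes lower (from 361) and 2 members higher (from 0) for Postn-traced against resident cells. It gave 12 genes higher (from 161), 5299 genes lower (from 2074) and 5 members lower (from 0) for scar against Tcf21-traced cells. Leaving out the filter gave 2 members lower (from 1) for Postn-traced against Postn-negative cells. It gave 1 member lower (from 0) for Tcf21-traced against Postn-traced cells. Leaving out marked cells gave 1 member higher (from 2) for Postn-traced against Postn-negative cells. It gave 1 member lower (from 0) for Tcf21-traced against Postn-traced cells. Filtering at 25% gave 717 genes higher (from 1302) and 434 genes lower (from 907) for resident Tcf21-traced against Postn-negative cells. It gave 1007 genes higher (from 1578) and 373 genes lower (from 680) for Postn-negative against resident cells. It gave 1 member higher (from 2) for Tcf21-traced against Postn-traced cells. It gave 84 genes higher (from 161) for scar against Tcf21-traced cells. Leaving out shallow cells gave 601 genes higher (from 161) and 997 genes lower (from 2074) for scar against Tcf21-traced cells. The share of cells with Igf1 and Igf1r was 44.4% in Postn-traced cells at a minimum of 1 TPM. At any value over 0 it was 70.6% in resident Tcf21-traced, 48.1% in Postn-traced, 50% in Tcf21-traced and 57.9% in the untraced Postn-positive cells of that capture. A lower pseudocount widens and a higher one narrows differences that rest on cells near 0, by construction, and a stricter filter leaves fewer genes. For the other settings the cause was not tested. At the depth of these cells, a value of 0 is no proof that a gene was off.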
